A study of Mus musculus with 6 samples.

Results

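A set of 9 genes of resident macrophages and of scavenging was followed across 3 kinds of macrophage culture: Maf, Tgfbi, Stab1, Mertk, Mrc1, Folr2, Msr1, Marco and Timd4. They were taken by name from the probe sets of the array that name exactly 1 gene, and a gene with several such probe sets was read from the brightest of them, by its mean. All 9 genes were found among the 22180 genes measured. The 6 arrays hold 2 samples from each of 3 groups of sorted C57Bl/6 bone marrow-derived macrophages, all precultured for 5 days in 20 ng/ml M-CSF, the growth factor of macrophages. For the next 6 days the first group received FSL-1 (20 ng/ml) plus nutlin-3a (10 µM), the second 20 ng/ml FSL-1, and the third 50 ng/ml M-CSF. FSL-1 is a synthetic lipopeptide that activates TLR2 together with TLR6, and cells grown in it are called multinucleated giant cells in the series design. Mdm2 holds p53 down, and nutlin-3a is a small molecule that keeps the pair from binding. The labels give neither the sort gate nor the number of animals, and do not say whether M-CSF stayed in the medium with FSL-1.

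Resident macrophages are the long-lived macrophages of healthy tissue, and they remove dying cells, modified lipoproteins and old matrix without inflammation. Part of this work is done by scavenger receptors, surface proteins that bind many kinds of altered or foreign ligand and carry them into the cell. Receptors of apoptotic cells form a second group, which recognises phosphatidylserine on the dying cell either directly or through bridging proteins. The transcription factor Maf is known to support the resident programme and to restrain division of macrophages.

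The cells carried macrophage RNA in all groups, since all 10 genes of a macrophage marker list (among them Cd68, Adgre1 and Lyz2) lay above 5.51, the median log2 level of all genes. Their levels summed on the linear scale were 35300 to 35400 with FSL-1 + nutlin-3a, 34500 to 34700 with FSL-1 and 32200 to 33400 in M-CSF. The neutrophil list of 12 genes summed to 867 to 883, 996 to 1030 and 532 to 594 in these groups, and 9 of the 12, among them Ly6g, Elane, Mpo and Camp, were below the median of all genes on every array. Of the other 3, Mmp8 (8.50 with FSL-1 against 5.99 in M-CSF) and S100a8 (6.60 against 4.19) rose. The 10 fibroblast markers summed to 471 to 528, 742 to 1040 and 527 to 586, and 5 of them, among them Dcn, Lum and Pdgfra, were below that median on all arrays. Acta2, a gene of contractile cells, had 7.26 with FSL-1 + nutlin-3a, 8.59 with FSL-1 and 7.61 in M-CSF. Of the 9 measured dendritic cell markers 7 and of the 8 measured lymphocyte markers 6 were below it throughout. Replicate arrays correlated at 0.9929 to 0.9951 over all genes, and arrays of different groups at 0.9788 to 0.9858. The part of other cell types in the results was not tested, and in bulk RNA fewer cells of a type and less RNA per cell cannot be told apart.

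Several markers were themselves called by limma, at an adjusted p under 0.05. Over all genes, 6.86% were called with FSL-1 over M-CSF, 6.5% with nutlin-3a over FSL-1 and 9.51% with FSL-1 + nutlin-3a over M-CSF. In this order the shares were 30%, 30% and 40% for macrophage markers, and the same for endothelial markers. They were 25%, 8.33% and 16.7% for neutrophil, 11.1%, 0% and 0% for dendritic cell, 20%, 20% and 10% for fibroblast, and 12.5%, 0% and 0% for lymphocyte markers. With FSL-1 over M-CSF, Itgam (0.74), Adgre1 (0.56), Lyve1 (0.75), Mmp8 (2.51), S100a8 (2.4), Cxcr2 (0.6), Ccr7 (0.65), Vcam1 (0.66), Acta2 (0.99) and Cd79b (0.56) rose on the log2 scale, and Csf1r (-0.87), Stab2 (-0.61) and Kdr (-0.51) fell. With FSL-1 + nutlin-3a over FSL-1, Tyrobp (0.73) rose, and Fcgr1 (-1.58), Cd14 (-1.12), Vwf (-1.71), Kdr (-1.25), Lyve1 (-0.66), Mmp8 (-0.62), Acta2 (-1.33) and Col1a2 (-0.8) fell. Over M-CSF, FSL-1 + nutlin-3a had higher levels of Tyrobp (0.51), Spi1 (0.64), Pecam1 (0.66), Mmp8 (1.89), S100a8 (2.17) and Pdgfrb (0.57), and lower levels of Fcgr1 (-1.06), Cd14 (-0.7), Vwf (-2.31), Kdr (-1.76) and Stab2 (-0.59). Of these calls, those of Mmp8 and S100a8 over M-CSF, of Vwf and Kdr under nutlin-3a against both other groups, and of Fcgr1 and Cd14 over FSL-1 held with each single array dropped, and the others did not.

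With FSL-1 the 9 genes split. Marco rose 15.1-fold, Msr1 2.17-fold and Folr2 1.74-fold over M-CSF, while Maf, Tgfbi and Stab1 fell and were 1.95-, 1.92- and 1.94-fold lower. Mrc1, Mertk and Timd4 did not pass the test. Nutlin-3a, set against FSL-1 alone, lowered Mrc1 and Folr2 and raised none of the 9 past the threshold. In FSL-1 + nutlin-3a cultures against M-CSF, Marco and Msr1 stood higher and Maf, Tgfbi, Stab1 and Mrc1 lower.

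**Figure D1:**
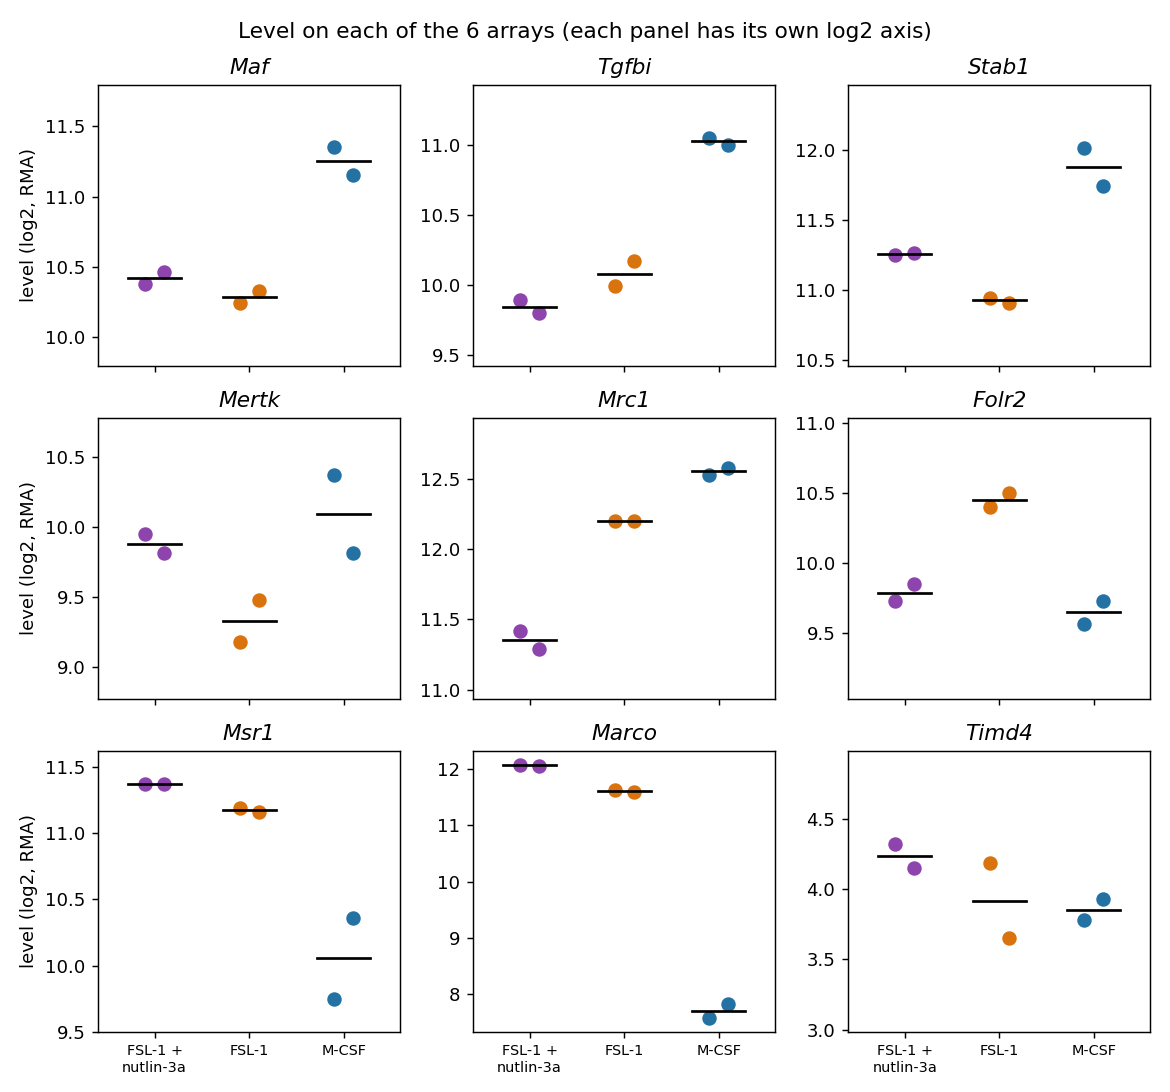
Log2 level of each of the 9 genes on the 6 arrays, with FSL-1 + nutlin-3a on the left, FSL-1 in the middle and M-CSF on the right; points are arrays, lines are group means, and each panel has its own axis. Marco lies at 11.60 or above on all 4 FSL-1 arrays and at 7.82 or below in M-CSF, and Mrc1 steps down to 11.29 and 11.42 with nutlin-3a.

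The counts of called genes were read against the share called among all genes. A gene was called at a Benjamini-Hochberg adjusted p under 0.05 in limma, adjusted over 22180 genes. With FSL-1 against M-CSF, 3 of the 9 rose and 3 fell, where 3.91% of all genes rose and 2.95% fell (6.86% called). Their median log2 change was -0.36, beside -0.008 over all genes. With nutlin-3a against FSL-1, 0 rose and 2 fell, where 2.38% of all genes rose and 4.12% fell (6.5% called), and the median was 0.20. At an unadjusted p under 0.05 in the same limma fit, 3 were higher (Marco, Stab1 and Mertk) and 2 lower, where 21.2% of all genes passed in either direction (21.2% with FSL-1 over M-CSF and 23.9% with FSL-1 + nutlin-3a over M-CSF). With FSL-1 + nutlin-3a against M-CSF, 2 rose and 4 fell, where 4.58% of all genes rose and 4.94% fell (9.51% called), and the median was -0.21. In each comparison the groups did not overlap for 8 of the 9 genes, against 50.2%, 50.9% and 51.5% of all genes. The comparisons share arrays (M-CSF in one pair of them, FSL-1 in another), so their values are given side by side and are not independent.

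**Figure D2:**
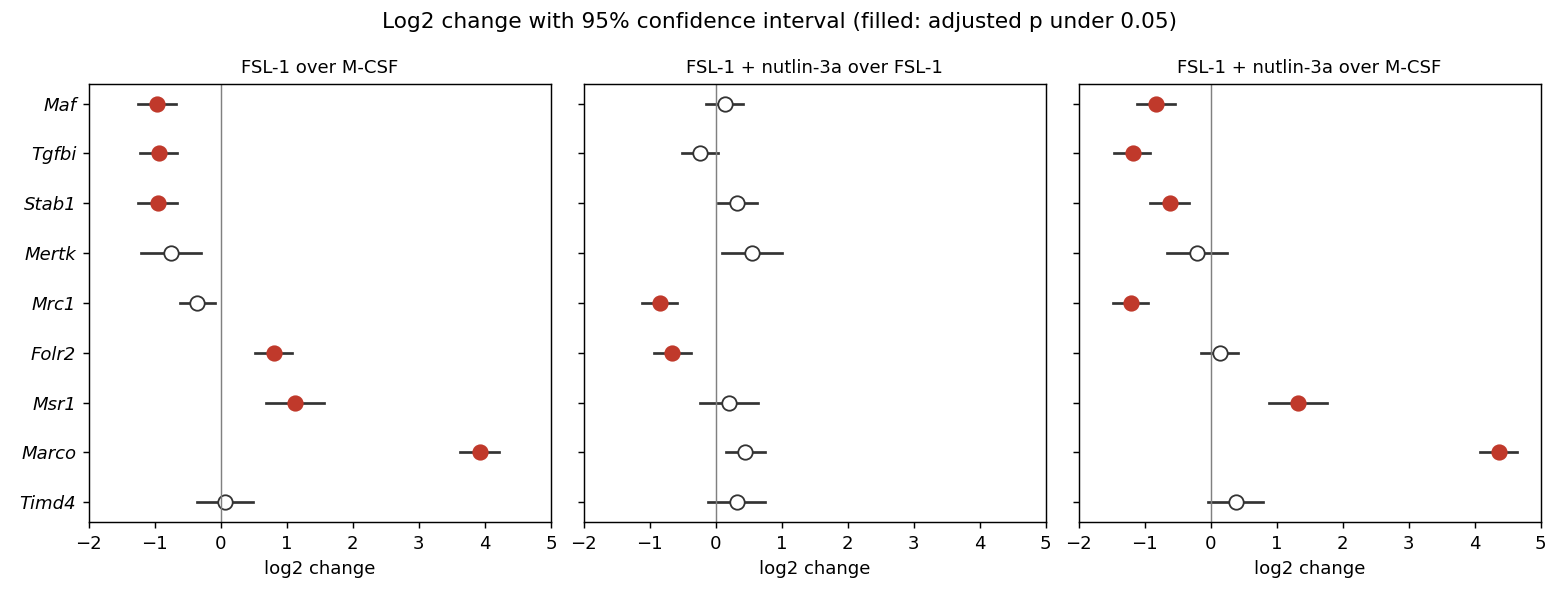
Log2 change of the 9 genes in the 3 comparisons, with lines for the 95% confidence interval of limma and filled points for an adjusted p under 0.05. Marco stands far to the right at 3.92 and 4.37 in both comparisons with M-CSF, and Mrc1 and Folr2 are the filled points left of 0 in the comparison of nutlin-3a.

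Maf, the transcription factor of the set (probe set 17513289), had 10.24 and 10.33 on the FSL-1 arrays, against 11.35 and 11.15 on the M-CSF arrays (log2). Both FSL-1 arrays lay at least 0.82 below both M-CSF arrays. The log2 change was -0.97 (SE 0.123, 95% confidence interval -1.25 to -0.68, limma adjusted p = 0.00387). With nutlin-3a, Maf had 10.38 and 10.46, and the change against FSL-1 was 0.14 (interval -0.15 to 0.42, adjusted p = 0.595). Against M-CSF it remained lower with FSL-1 + nutlin-3a, by a log2 change of -0.83 (adjusted p = 0.00494). The order of the groups was thus M-CSF, FSL-1 + nutlin-3a, FSL-1 from high to low, and the last pair did not differ beyond the test's threshold.

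A second probe set that names Maf alone (17505903) gave another picture of nutlin-3a. It had 8.86 and 8.47 with FSL-1 + nutlin-3a, against 7.70 and 8.11 with FSL-1, and 8.78 and 8.75 in M-CSF. Here the nutlin-3a arrays sat around the M-CSF arrays and above both FSL-1 arrays. In a fit over the 23521 probe sets that name 1 gene, the change was -0.86 (SE 0.178, adjusted p = 0.0296) with FSL-1 over M-CSF and 0.76 (SE 0.178, adjusted p = 0.0486) with FSL-1 + nutlin-3a over FSL-1. Against M-CSF, FSL-1 + nutlin-3a had -0.10 (adjusted p = 0.798). The nutlin-3a call was lost without any 1 of the 6 arrays: adjusted p was 0.246 and 0.0793 without FSL-1 replicates 1 and 2, 0.205 and 0.0606 without FSL-1 + nutlin-3a replicates 1 and 2, and 0.0747 without either M-CSF array. The FSL-1 call was lost without any of the 4 arrays it compares (adjusted p = 0.153 and 0.0939 without M-CSF replicates 1 and 2, 0.183 and 0.0515 without FSL-1 replicates 1 and 2). Which stretch of the Maf transcript each probe set reads is not known from the sources used here. With the mean of both probe sets, the decrease with FSL-1 over M-CSF was still called (-0.91, adjusted p = 0.00711), and that of FSL-1 + nutlin-3a over M-CSF was not (-0.46, adjusted p = 0.0713). The difference between the probe sets was not tested.

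**Figure D3:**
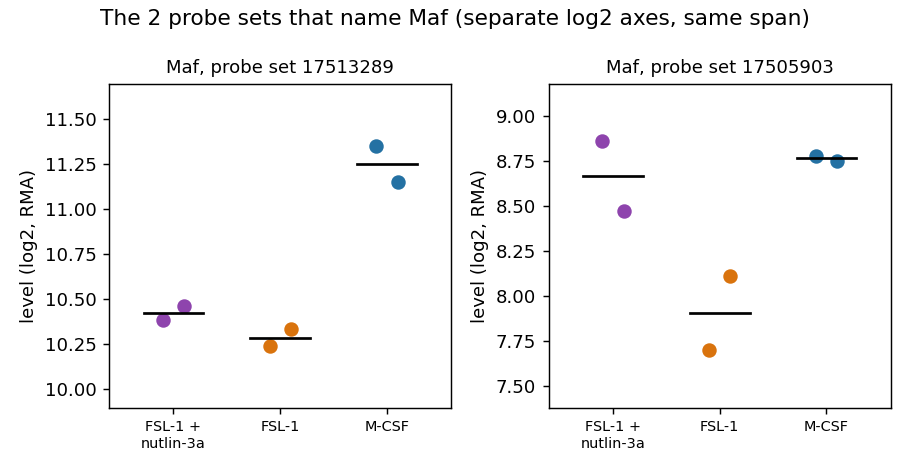
Log2 level of both Maf probe sets on the 6 arrays, with FSL-1 + nutlin-3a, FSL-1 and M-CSF from left to right; points are arrays, lines are group means, and the axes differ in position but not in span. Both probe sets are lower with FSL-1 than in M-CSF, and in 17505903 the nutlin-3a arrays (8.86 and 8.47) lie on either side of the M-CSF arrays (8.78 and 8.75).

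The genes of other Maf proteins and of their dimer partners were also followed. The share called was 10% with FSL-1 over M-CSF, beside 6.86% of all genes. It was 0% with nutlin-3a over FSL-1 (6.5% of all genes) and 10% with FSL-1 + nutlin-3a over M-CSF (9.51%). Of 10 measured genes of this list, 1 rose and 0 fell with FSL-1 over M-CSF: Nfe2l1, a bZIP factor of the proteasome response, changed by 0.75 on the log2 scale (adjusted p = 0.0105). It was not called without M-CSF replicate 1 (adjusted p = 0.0764), nor when either array of the FSL-1 group was dropped (0.0939 and 0.0557). With nutlin-3a over FSL-1, 0 of the 10 passed limma's threshold, and at an unadjusted p under 0.05 there were 0 higher and 2 lower, against 21.2% of all genes in either direction. With FSL-1 + nutlin-3a over M-CSF, 1 rose, the small Maf protein gene Maff (0.64, adjusted p = 0.0484). Dropping M-CSF replicate 1 (adjusted p = 0.196), either FSL-1 array (0.0845) or either FSL-1 + nutlin-3a array (0.116 and 0.184) ended that call. Nfe2l2, the NRF2 gene, had changes of 0.02 and 0.11 in the first and second comparison.

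Tgfbi and Stab1 were lower with FSL-1 on every array, by nearly the same log2 change as Maf. The promoter windows of both are printed here, with those of Marco and Mrc1. Of the 9 genes, Marco rose most with FSL-1 over M-CSF, and Mrc1 fell most with nutlin-3a over FSL-1. RefSeq's table for GRCm38.p6 holds such a window, from 250 bases before to 50 after a transcript's start, for 7 of the 9 genes. Maf and Msr1 have none there. The positions are chr13:56609336-56609635 on the plus strand for Tgfbi, chr14:31168592-31168891 on the minus strand for Stab1, chr1:120504975-120505274 on the minus strand for Marco and chr2:14229164-14229463 on the plus strand for Mrc1. Capitals mark matches, on either strand, to TGCTGA (a half-site bound by Maf proteins), TGANTCA (AP-1), AGGAAG (the core bound by the macrophage factor PU.1), TATAAA (the TATA box) and an NF-kB motif (GGG and TTCC with any 3 bases between). Each sequence runs 5′ to 3′ along its gene's strand.
Tgfbi: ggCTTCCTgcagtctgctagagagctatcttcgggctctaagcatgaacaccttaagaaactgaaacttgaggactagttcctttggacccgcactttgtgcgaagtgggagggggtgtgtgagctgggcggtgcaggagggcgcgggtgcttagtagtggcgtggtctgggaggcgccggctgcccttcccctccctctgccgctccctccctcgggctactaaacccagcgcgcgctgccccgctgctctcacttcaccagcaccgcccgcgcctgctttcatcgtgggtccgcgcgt
Stab1: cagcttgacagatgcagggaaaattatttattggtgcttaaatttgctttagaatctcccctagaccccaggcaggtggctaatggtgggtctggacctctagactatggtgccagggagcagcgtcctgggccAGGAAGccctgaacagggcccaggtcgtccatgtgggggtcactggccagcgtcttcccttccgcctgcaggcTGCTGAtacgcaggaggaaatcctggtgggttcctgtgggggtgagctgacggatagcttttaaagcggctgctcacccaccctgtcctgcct
Marco: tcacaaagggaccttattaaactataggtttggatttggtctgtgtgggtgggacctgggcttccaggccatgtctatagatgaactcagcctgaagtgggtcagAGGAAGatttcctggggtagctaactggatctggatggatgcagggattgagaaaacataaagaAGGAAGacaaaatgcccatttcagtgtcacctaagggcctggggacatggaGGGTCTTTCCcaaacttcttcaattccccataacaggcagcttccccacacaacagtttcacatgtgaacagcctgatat
Mrc1: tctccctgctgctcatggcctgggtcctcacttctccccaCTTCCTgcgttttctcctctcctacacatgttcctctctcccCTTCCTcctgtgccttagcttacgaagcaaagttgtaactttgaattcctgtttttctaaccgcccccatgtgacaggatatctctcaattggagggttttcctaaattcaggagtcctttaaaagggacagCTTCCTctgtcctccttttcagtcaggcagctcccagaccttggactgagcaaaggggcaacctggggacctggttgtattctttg

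In these windows the Maf half-site occurs in Stab1 alone, with its first base at position -43 from the start. The NF-kB motif occurs in Marco alone, at -30. The PU.1 core is in all 4 windows, with 1 match in Tgfbi, 1 in Stab1, 2 in Marco and 3 in Mrc1. AP-1 and TATA box letters are in none of the 4, and no listed motifs overlap. Over all 32851 windows of the table, 19.5% hold the Maf half-site, 5.56% the NF-kB motif, 35.4% the PU.1 core, 7.81% the AP-1 motif and 13.6% the TATA box. Among the other genes, Timd4 has 2 Maf half-sites, each of the 2 Folr2 windows has 1, and the Mertk window matches none of the 5 motifs. These matches describe letters and are not shown to be bound.

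Tgfbi encodes a secreted matrix protein that TGF-beta induces and that binds collagen and integrins. Its levels (probe set 17287827) were 9.99 and 10.17 with FSL-1, against 11.05 and 11 in M-CSF. The groups were 0.83 apart, and the log2 change was -0.94 (SE 0.12, interval -1.22 to -0.67, adjusted p = 0.00375). With FSL-1 + nutlin-3a, Tgfbi had 9.89 and 9.80, below both FSL-1 arrays. That step of -0.24 did not pass (interval -0.51 to 0.04, adjusted p = 0.309), whereas the change against M-CSF did (-1.18, SE 0.12, adjusted p = 0.000797). With single arrays dropped in turn, the change with FSL-1 ran from -1.03 to -0.86 and the highest adjusted p was 0.0443.

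The share of TGF-beta pathway genes called was 6.25% with FSL-1 over M-CSF, 12.5% with nutlin-3a over FSL-1 and 12.5% with FSL-1 + nutlin-3a over M-CSF, beside 6.86%, 6.5% and 9.51% of all genes. Of 16 measured genes, 1 rose and 0 fell with FSL-1 over M-CSF, the Smad corepressor gene Skil (1.19, adjusted p = 0.0245, and 0.0654 to 0.154 without M-CSF replicate 2 or either FSL-1 array). Under nutlin-3a over FSL-1, 2 rose and 0 fell, the signal transducer Smad3 (0.72, adjusted p = 0.0182) and the inhibitory Smad7 (0.78, adjusted p = 0.0183). With FSL-1 + nutlin-3a over M-CSF, Skil (1.62) and Smad7 (0.73) rose. Dropping single compared arrays turned these counts of 1, 2 and 2 into 0 to 1, 0, and 1 to 2, and the count of 0 that fell with FSL-1 over M-CSF into 0 to 1. The ligand gene Tgfb1 had log2 changes of -0.22 and 0.41 in the first and second comparison, and its receptor gene Tgfbr2 -0.51 and 0.27, none of them past the threshold (adjusted p = 0.336, 0.0818, 0.0598 and 0.289).

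Stab1 encodes stabilin-1, a large scavenger receptor that clears modified lipoproteins and the matrix protein SPARC. On the FSL-1 arrays it had 10.94 and 10.91, against 12.01 and 11.74 on the M-CSF arrays (probe set 17304523). All FSL-1 values were at least 0.81 lower, with a log2 change of -0.95 (SE 0.127, interval -1.25 to -0.66, adjusted p = 0.00486). With FSL-1 + nutlin-3a, Stab1 had 11.25 and 11.26, between the other groups and apart from both. The step of 0.33 over FSL-1 (interval 0.04 to 0.63) did not pass after adjustment (adjusted p = 0.18), although it did when limma's variances were moderated with a trend and robustly (adjusted p = 0.0219). Against M-CSF the change with FSL-1 + nutlin-3a was -0.62 (adjusted p = 0.0213), and this call was lost without M-CSF replicate 1 (-0.49, adjusted p = 0.113) or without FSL-1 + nutlin-3a replicate 1 or 2 (adjusted p = 0.0889 and 0.0859).

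By profile over the 6 arrays, after subtraction of each gene's mean, the gene closest to Stab1 among 19396 named genes was Csf1r, the receptor of M-CSF, at a root mean square distance of 0.0649 log2 units. Csf1r had log2 changes of -0.87 with FSL-1 and 0.40 with nutlin-3a. Hacd4 (0.0762) and Shisa9 (0.0771) followed. Closest to Maf were Cd83 (0.0559), Hacd4 (0.0655) and Eya1 (0.0689). For Tgfbi they were the endosomal RNA sensor Tlr7 (0.0543), Slc16a7 (0.0544) and the integrin chain Itga6 (0.0706). For scale, the range over the arrays was 1.11 for Maf, 1.1 for Stab1 and 1.25 for Tgfbi.

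Mertk encodes a receptor tyrosine kinase that binds apoptotic cells through the bridging proteins Gas6 and protein S. It had 9.95 and 9.81 with FSL-1 + nutlin-3a, 9.18 and 9.48 with FSL-1, and 10.37 and 9.81 in M-CSF (probe set 17375997). Both FSL-1 arrays were the lowest, but the M-CSF arrays differed from each other by more than the replicates of either other group. The log2 change of -0.76 with FSL-1 over M-CSF did not pass (SE 0.197, interval -1.21 to -0.30, adjusted p = 0.0629). It passed after a further quantile normalization (adjusted p = 0.0452), after either filter on dim genes (0.0215 and 0.0359), with trended and robust moderation (0.011) and without M-CSF replicate 2 (-1.04, adjusted p = 0.0265). Without M-CSF replicate 1 it was -0.48. With FSL-1 + nutlin-3a the changes were 0.55 over FSL-1 (interval 0.10 to 1.01, adjusted p = 0.153) and -0.21 over M-CSF (adjusted p = 0.588), and the second turned to 0.07 without M-CSF replicate 1. The closest profiles were those of the histone methyltransferase gene Kmt2a (0.0779), Tnrc18 (0.0799) and Hectd4 (0.0808).

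Other genes of apoptotic cell clearance changed in both directions. The share called was 28% with FSL-1 over M-CSF, beside 6.86% of all genes. It was 28% with nutlin-3a over FSL-1 (6.5% of all genes) and 24% with FSL-1 + nutlin-3a over M-CSF (9.51%). Of 25 measured, 2 rose and 5 fell with FSL-1 over M-CSF. Mfge8, the bridging protein of integrins, rose by 1.28 (SE 0.116, adjusted p = 0.000738), while the integrin chain Itgb5 fell by 1.2 (SE 0.128, adjusted p = 0.00165) and Gas6, the ligand of Mertk, by 0.80 (adjusted p = 0.00689, and 0.0693 without FSL-1 replicate 1). Under nutlin-3a, set against FSL-1, 5 rose and 2 fell. The crosslinking enzyme Tgm2 rose by 1.66 (SE 0.153) and Lrp1, an endocytic receptor of many ligands, by 1.2 (SE 0.147). The lipid receptor Cd300lf fell by 1.27 (SE 0.152), with an adjusted p of 0.00123 to 0.00388 for the 3 genes. Over M-CSF, 4 rose and 2 fell with FSL-1 + nutlin-3a, led by Cd300lf (-1.51), Mfge8 (1.1) and Tgm2 (1.37). Dropping single compared arrays turned the counts of 2 and 5 into 1 and 1 to 4, those of 5 and 2 into 2 to 3 and 1, and those of 4 and 2 into 3 to 4 and 1 to 2. The sister kinase genes Axl (-0.23, adjusted p = 0.419) and Tyro3 (0.36, adjusted p = 0.458) were not called with FSL-1.

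Mrc1 encodes the mannose receptor CD206, which takes up mannose-rich glycoproteins and collagen. Its levels (probe set 17367102) were 11.42 and 11.29 with FSL-1 + nutlin-3a, 12.20 on both FSL-1 arrays, and 12.53 and 12.58 in M-CSF. The levels were lowest with FSL-1 + nutlin-3a and highest in M-CSF, with no overlap between groups. The step with FSL-1 over M-CSF was -0.36 (SE 0.114, interval -0.62 to -0.09, adjusted p = 0.118); it passed with trended and robust moderation (adjusted p = 0.003) and when only genes above the median level were tested (0.0366). The step with nutlin-3a over FSL-1 was -0.85 (SE 0.114, interval -1.11 to -0.59, adjusted p = 0.00541), or 1.80-fold lower. That call was lost without FSL-1 replicate 1 or 2 (adjusted p = 0.0536 and 0.0529), with the change still at -0.85. Over M-CSF, Mrc1 with FSL-1 + nutlin-3a had -1.21 (SE 0.114, adjusted p = 0.000556).

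The closest profiles to Mrc1 were those of Trip13 (0.0528), a mitotic checkpoint ATPase, the histone chaperone gene Nasp (0.0568) and Cdkn2d (0.0641), an inhibitor of cyclin-dependent kinases, with log2 changes of -0.97, -0.91 and -1.0 under nutlin-3a. Mrc1 and Stab1 are also known from sinusoidal endothelium, and the summed level of 10 endothelial markers was 368 to 373 with FSL-1 + nutlin-3a, 577 to 616 with FSL-1 and 698 to 745 in M-CSF. Of that list Vwf (-1.71) and Kdr (-1.25) fell with nutlin-3a over FSL-1, and so did Lyve1 (-0.66), although dropping any 1 compared array ended its call (adjusted p = 0.0506 to 0.18). The remaining markers did not all follow. Pecam1 (0.22, adjusted p = 0.474) and Egfl7 (0.03, adjusted p = 0.943) were not called in that limma comparison. Over M-CSF, FSL-1 + nutlin-3a had changes of 0.66 for Pecam1 and 0.17 for Egfl7. Cdh5, Tek, Tie1, Stab2 and Emcn were below the median of all genes on every array. The part of such cells in the Mrc1 values was not tested.

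Genes of alternative activation, the state that Mrc1 is often used to mark, were called in 12.5% of cases with FSL-1 over M-CSF, 12.5% with nutlin-3a over FSL-1 and 6.25% with FSL-1 + nutlin-3a over M-CSF, beside 6.86%, 6.5% and 9.51% of all genes. At an unadjusted limma p under 0.05, 4 were higher and 2 lower with FSL-1 over M-CSF, and 2 were higher and 2 lower with nutlin-3a over FSL-1, where 21.2% of all genes passed in both comparisons. Of 16 measured, 2 rose and 0 fell with FSL-1 over M-CSF, the transcription factor Egr2 (1.28, adjusted p = 0.00059) and the transferrin receptor Tfrc (0.79, adjusted p = 0.0151, and 0.0657 to 0.117 with any 1 compared array dropped). Between FSL-1 + nutlin-3a and FSL-1, 0 rose and 2 fell, Egr2 (-1.2, adjusted p = 0.00127) and the fibronectin gene Fn1 (-1.67, adjusted p = 0.0424). Of single arrays dropped, each except replicate 1 of FSL-1 + nutlin-3a ended the Fn1 call (adjusted p = 0.0652 to 0.217). With FSL-1 + nutlin-3a over M-CSF, Tfrc rose by 0.72 (adjusted p = 0.0153, and 0.0648 to 0.0839 without either M-CSF array or replicate 1 of FSL-1 + nutlin-3a). Dropping single compared arrays turned the counts of 2, 2 and 1 into 1, 1 to 2 and 0 to 1, and the counts of 0 that fell over M-CSF into 0 to 1 with FSL-1 and 0 to 2 with FSL-1 + nutlin-3a. Arg1 (5.04 with FSL-1 + nutlin-3a, 5.07 with FSL-1, 4.84 in M-CSF), Retnla (2.69, 2.44 and 2.58) and Chil3 (3.12, 3.10 and 3.59) were below the median level of all genes in each group.

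Folr2 encodes folate receptor beta, a surface marker of resident macrophages. It had 9.73 and 9.85 with FSL-1 + nutlin-3a, 10.40 and 10.50 with FSL-1, and 9.57 and 9.73 in M-CSF (probe set 17493949). The FSL-1 arrays stood above all others, and the lowest FSL-1 + nutlin-3a array and the highest M-CSF array both read 9.73 at 2 decimals. The log2 change was 0.80 with FSL-1 over M-CSF (SE 0.122, interval 0.52 to 1.08, adjusted p = 0.00863) and -0.66 with FSL-1 + nutlin-3a over FSL-1 (interval -0.94 to -0.38, adjusted p = 0.0206). Between FSL-1 + nutlin-3a and M-CSF it was 0.14 (interval -0.14 to 0.42, adjusted p = 0.555). The increase lost its call when replicate 1 of M-CSF (adjusted p = 0.0653) or either FSL-1 array (0.056 and 0.0781) was dropped. The decrease lost it without FSL-1 replicate 1 or 2 (adjusted p = 0.101 and 0.141) or FSL-1 + nutlin-3a replicate 1 or 2 (0.105 and 0.064).

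Closest to Folr2 in profile were the tubulin gene Tubb6 (0.059), the cargo receptor gene Lman1 (0.0591) and the phospholipase gene Pla2g5 (0.0595). Of 7 other genes of folate uptake and retention, 0 passed limma's threshold with FSL-1 over M-CSF, where 6.86% of all genes did. In that comparison 1 was higher at an unadjusted limma p under 0.05, which 21.2% of all genes passed. The share called was 28.6% with nutlin-3a over FSL-1 (6.5% of all genes) and 14.3% with FSL-1 + nutlin-3a over M-CSF (9.51%). Set against FSL-1, FSL-1 + nutlin-3a changed 2: the folate transporter Slc46a1 rose by 0.63 (adjusted p = 0.0437) and Ggh, which trims the glutamate tail of folates, fell by 0.49 (adjusted p = 0.0435), and dropping any 1 of the 6 arrays ended both calls (adjusted p = 0.0505 to 0.237). Slc46a1 also rose over M-CSF (0.89, adjusted p = 0.00751, but 0.0524 without replicate 2 of FSL-1 + nutlin-3a). The other folate receptor gene, Folr1, had 5.27, 5.24 and 5.24 with FSL-1 + nutlin-3a, FSL-1 and M-CSF.

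Msr1 encodes scavenger receptor A, which binds modified lipoproteins and bacterial surfaces, and Marco a relative with a collagen-like stalk that binds bacteria and particles. Msr1 (probe set 17508850) had 11.37 on both FSL-1 + nutlin-3a arrays, 11.19 and 11.16 with FSL-1, and 9.75 and 10.36 in M-CSF. All treated arrays lay above M-CSF, whose replicates differed by far more than those of the other groups. The change with FSL-1 over M-CSF was 1.12 (SE 0.19, interval 0.68 to 1.56, adjusted p = 0.0132), and the call was lost without FSL-1 replicate 1 or 2 (1.11 and 1.13, adjusted p = 0.0915 and 0.0841). Nutlin-3a over FSL-1 gave 0.20 (interval -0.24 to 0.64, adjusted p = 0.621). FSL-1 + nutlin-3a over M-CSF gave 1.32 (adjusted p = 0.00433), with 1.01 to 1.63 and an adjusted p of at most 0.0326 with single arrays dropped. The kinase gene Src (0.0801), the nucleotide receptor gene P2ry2 (0.0997) and Mfap3l (0.101) had the closest profiles.

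Marco was the gene of the set with the widest range over the arrays, 4.49 log2 units (probe set 17226327). It had 12.07 and 12.06 with FSL-1 + nutlin-3a, 11.63 and 11.60 with FSL-1, and 7.58 and 7.82 in M-CSF. The lowest FSL-1 array was 3.78 above the highest M-CSF array. The change with FSL-1 over M-CSF was 3.92 (SE 0.125, interval 3.63 to 4.21, adjusted p = 5.71e-06), and 14 of the 22180 genes had a larger increase. FSL-1 + nutlin-3a over M-CSF gave 4.37, or 20.6-fold (adjusted p = 5.23e-06), with 4 genes above it. Between FSL-1 + nutlin-3a and FSL-1 the change was 0.45 (SE 0.125, interval 0.16 to 0.74), which did not pass (adjusted p = 0.0799). It passed when the dimmest 25% of genes were dropped (adjusted p = 0.046), when only genes above the median level were tested (0.0243) and with trended and robust moderation (0.00571). The receptor phosphatase gene Ptprm had the closest profile (0.161), followed by Klra2 (0.292) and Lancl3 (0.343).

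Of 19 other scavenger receptors, 31.6% were called with FSL-1 over M-CSF, beside 6.86% of all genes. The share was 5.26% with nutlin-3a over FSL-1 (6.5% of all genes) and 21.1% with FSL-1 + nutlin-3a over M-CSF (9.51%). With FSL-1 over M-CSF, 2 rose and 4 fell. Cxcl16, a membrane-bound chemokine that also binds oxidised lipoprotein, rose by 1.1 (adjusted p = 0.00643, and 0.0613 without FSL-1 replicate 2). Cd5l, a secreted scavenger protein of resident macrophages, fell by 1.28 (SE 0.142, adjusted p = 0.00196), and the lysosomal receptor Scarb2 by 0.90 (adjusted p = 0.00863, but 0.0667 or 0.0787 without replicate 1 of M-CSF or of FSL-1). Nutlin-3a over FSL-1 raised 1, Lrp1 (1.2, adjusted p = 0.00388), and lowered 0. With FSL-1 + nutlin-3a over M-CSF, 2 rose and 2 fell, led by Cd5l (-1.43), Cxcl16 (1.39) and Scarf1 (0.82, adjusted p = 0.0108, but 0.0572 or 0.0692 without replicate 2 of M-CSF or of FSL-1 + nutlin-3a). Dropping single compared arrays turned the counts of 2 and 4 into 0 to 2 and 1 to 3, and those of 2 and 2 into 1 to 2 and 1. Cd36 had 11.85, 11.76 and 11.77 and Cd68 13.24, 13.09 and 13.22 with FSL-1 + nutlin-3a, FSL-1 and M-CSF.

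Timd4, a phosphatidylserine receptor that marks long-lived resident macrophages, was dim throughout (probe set 17248860). It had 4.32 and 4.15 with FSL-1 + nutlin-3a, 4.19 and 3.65 with FSL-1, and 3.78 and 3.93 in M-CSF, all below the median of all genes (5.51) and around the median of probe sets that name no gene (4.26). The FSL-1 arrays spanned both M-CSF arrays. The changes were 0.06 (interval -0.36 to 0.49, adjusted p = 0.902) with FSL-1 over M-CSF and 0.32 (interval -0.11 to 0.74, adjusted p = 0.378) with nutlin-3a over FSL-1. The first turned negative when replicate 1 of M-CSF (-0.01) or of FSL-1 (-0.21) was dropped. Its closest profiles were those of the symbols Zfp750 (0.0539), Mir153 (0.0544) and Krtap4-13 (0.0641). Of the 24 other resident macrophage genes measured, 3 were below the median of all genes on every array. Among them, Vsig4 had 3.59, 3.31 and 3.23 with FSL-1 + nutlin-3a, FSL-1 and M-CSF. Clec4f (5.36, 5.21 and 5.13) and Gata6 (4.8, 4.62 and 4.58) were the others. Cd163 had means of 5.04, 5.23 and 5.45 and was not below that median on every array. In contrast, C1qb (12.64, 12.64 and 12.94), Pltp (11.70, 11.85 and 12.13) and Siglec1 (9.17, 9.61 and 9.48) were bright.

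Over the wider list of resident macrophage genes, which leaves out the 9, 24 were measured. The share called was 41.7% with FSL-1 over M-CSF, beside 6.86% of all genes. It was 33.3% with nutlin-3a over FSL-1 (6.5% of all genes) and 37.5% with FSL-1 + nutlin-3a over M-CSF (9.51%). With FSL-1 over M-CSF, 5 rose and 5 fell. The iron exporter Slc40a1 fell by 2.37 (SE 0.111, adjusted p = 2.91e-05) and the carbonyl reductase Cbr2 by 1.52 (SE 0.131, adjusted p = 0.00057), while the lectin Clec4n rose by 1.88 (SE 0.127, adjusted p = 0.000167). With nutlin-3a over FSL-1, 3 rose and 5 fell. Slc40a1 rose by 1.51 (SE 0.111), Cbr2 fell by 1.83 (SE 0.131) and the IgG receptor Fcgr1 by 1.58 (SE 0.172), with an adjusted p of 0.000391 to 0.00228. With FSL-1 + nutlin-3a over M-CSF, 4 rose and 5 fell. By limma p the first were Cbr2 (-3.35), the oxysterol receptor Nr1h3 (1.66) and Cd5l (-1.43). The largest increase was that of Id3 (2.9, limma adjusted p = 0.00146), with an SD of 0.87 between its FSL-1 + nutlin-3a arrays. Dropping single compared arrays turned the counts of 5 and 5 into 1 to 2 and 3 to 4, those of 3 and 5 into 3 and 2 to 3, and those of 4 and 5 into 4 and 3 to 4. The median log2 change of the list was 0.06, -0.01 and -0.25 in the order FSL-1 over M-CSF, nutlin-3a over FSL-1, FSL-1 + nutlin-3a over M-CSF.

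**Figure D4:**
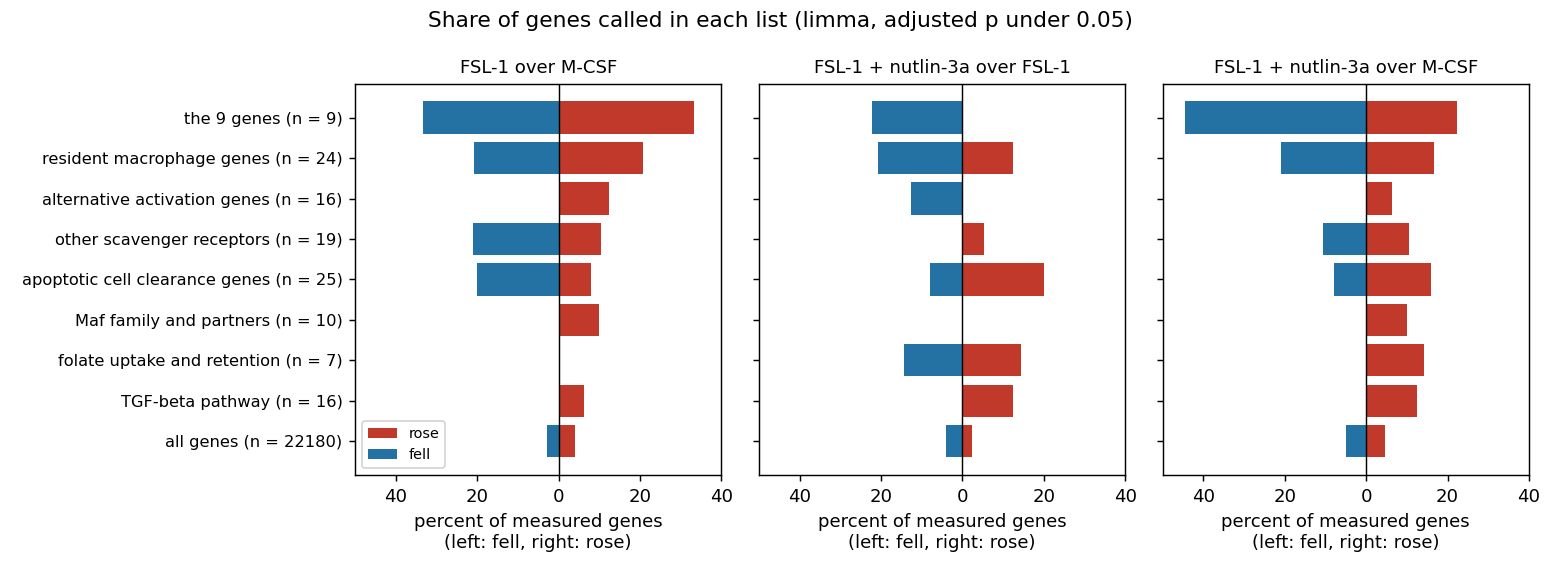
Percent of measured genes that rose (right of 0) or fell (left of 0) in limma for the 9 genes, for 7 further lists and for all 22180 genes, in the 3 comparisons. With nutlin-3a over FSL-1 the 9 genes have a bar on the left only (2 of 9), and all genes 2.38% on the right and 4.12% on the left.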

How the data were processed

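RNA of sorted cells was amplified (NuGEN Ovation PicoSL WTA system) and, per the labels' protocols, read on Affymetrix arrays. The authors deposited 1 log2 value per probe set and array; the submitters' processing notes name RMA and Affymetrix Expression Console 1.4. After background correction, RMA forces the probe intensities of all arrays to the same quantiles, so a change shared by most genes would be hidden. The summarised probe set values still differed slightly, with array medians of 5.05 to 5.14. Each array is 1 sample, and 2 arrays a group limit the precision. Whether replicates are separate cultures or animals is not stated, and p-values therefore reflect a spread between samples that may be technical.

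GEO's platform annotation gives 1 gene for 23521 of the 34390 probe sets, several for 1814 and no gene for 9055. They gave 22180 genes; 1082 genes had more than 1 probe set and were represented by the one with the highest mean. RefSeq's gene table holds the Entrez identifier of 23328 of these probe sets and changed 0 symbols. List members not matched are not analysed here.

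One fit over all 6 arrays used limma 3.58.1 (lmFit and eBayes, R 4.3.3), with 3 residual and 4.88 prior degrees of freedom, two-sided. The test was checked on simulated data. The 9 genes, the further lists and the tests were chosen with earlier results of these data known. The text names the 9 genes, for each list and comparison the called genes with the lowest p (at most 3), called markers, and the 3 closest profiles of each gene, passing over predicted genes; other list genes were named after their values were seen. Motifs were matched as exact letters. Figures were drawn with matplotlib 3.10.9. Alternatives were other moderation, normalization, centring, probe set summary and filters, fits on the compared groups alone, a replicate block, array weights and leaving out each array; crossing the M-CSF numbers in that block was added after seeing the data.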

Additional observations from a re-analysis of the deposited data

How the results depend on the processing

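Among the 426 values of single genes under an alternative, 397 kept their direction and their side of the threshold, 15 lost a call, 11 gained one and 3 turned sign: Timd4 with FSL-1 over M-CSF (-0.01 with replicate 1 of M-CSF dropped, -0.21 with replicate 1 of FSL-1 dropped, and up to 0.33 otherwise) and Mertk with FSL-1 + nutlin-3a over M-CSF (0.07 with replicate 1 of M-CSF dropped, and down to -0.49 otherwise). Their causes were not tested. Not all of the 426 values are separate checks, so the 397 overstate how robust the results are. A fit on the compared groups alone repeats the fits that drop either array of the group left out of the comparison. Averaging over probe sets could change the level of Maf only, since each of the other genes of the 9 has 1 probe set. In the 3 comparisons, with FSL-1 over M-CSF first and FSL-1 + nutlin-3a over M-CSF last, the counts of 1521, 1441 and 2110 called genes became 2744, 2658 and 3337 with trended and robust moderation and 2704, 2627 and 3338 when only genes above the median level were tested. They became 451 to 1299, 352 to 1212 and 1158 to 1529 when 1 array was left out, which leaves its group with 1 array, assumed to vary like the others. The filters on dim genes leave fewer genes to test, and the number left is not given here. Counts under the median filter therefore cannot be read as shares of all genes. How many of all genes rose or fell under each alternative is also not given. The counts of the 9 genes that follow are thus not set against a background share. Of the 9 genes, 5 rather than 3 fell with FSL-1 over M-CSF under trended and robust moderation or the median filter. With nutlin-3a over FSL-1, 2 rather than 0 rose under that moderation, and 1 under the median filter or without the dimmest 25% of genes. Without 1 array, 1 to 3 rose and 3 to 4 fell with FSL-1 over M-CSF, 0 to 2 fell with nutlin-3a over FSL-1, and 2 rose and 3 to 4 fell with FSL-1 + nutlin-3a over M-CSF. The highest count with nutlin-3a over FSL-1 came only from dropping an M-CSF array, which that comparison does not use. The labels share replicate numbers without saying what they mean. For that reason the numbers were not taken to pair samples in the main fit. Deviations of equally numbered arrays correlated at -0.025, 0.017 and -0.188. These values cannot decide whether samples were paired, since paired samples may carry different numbers. A fit with a replicate block called 1167, 1005 and 1725 genes, and the calls of the 9 genes were the same. With the M-CSF numbers crossed, 1278, 1148 and 1971 were. Background levels are unknown, so dim genes such as Timd4 may lie at the noise level.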
